A study of Homo sapiens with 27 samples.

Results

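The genes described here encode the proteins of the cytosolic ribosome. They were taken by name from the count table, as the protein-coding rows whose symbol is RPL or RPS with a number, together with RPLP0, RPLP1, RPLP2 and RPSA. This gave 84 of the 61533 rows. Of these, 77 are the standard ribosomal proteins (31 of the small subunit, 43 of the large subunit and 3 of the stalk), and 7 are paralogs with an L in their name: RPL3L, RPL7L1, RPL10L, RPL22L1, RPL26L1, RPL39L and RPS27L. The name rule leaves out other ribosomal components such as RACK1, FAU and RPL36AL, and 4 such genes were followed as a separate list.

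The RNA came from 92.1 cells, a *GNAQ* mutant line of uveal melanoma, the melanocyte cancer of the eye. The cells were passaged in 100 nM VS-4718, an inhibitor of focal adhesion kinase (FAKi), or in its vehicle DMSO, and mRNA was sequenced. The 27 libraries formed 9 groups of 3, namely vehicle cultures at day 0 and a vehicle and a FAKi group on each of days 3, 7, 14 and 21. All groups are the same unmodified mutant line without a second line to compare, and day 0 had no FAKi group. The methods describe plating in triplicate within an experiment that was itself repeated, and the labels do not say which kind of replicate a library is, so a p-value here measures the spread between these libraries, which may be partly technical. In bulk RNA, fewer cells that make a transcript and less transcript per cell cannot be told apart.

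Ribosomal proteins are made in matched amounts, and each is assembled onto ribosomal RNA in the nucleolus to form the small and large subunits. Most of their mRNAs start with a cytosine followed by a run of pyrimidines, the 5′ terminal oligopyrimidine (TOP) tract, through which the kinase complex mTORC1 and the RNA-binding protein LARP1 control how strongly they are translated. In melanoma, as in other growing cells, ribosome production is one of the largest users of transcription and translation.

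The transcription starts of a few genes that recur below show this tract. RefSeq promoter sequences of GRCh38.p14 were at hand for 67 of the 84 genes. In 43 of them (64.18%) the annotated start was a C at the head of at least 5 pyrimidines in a row, against 4.04% of all 27305 promoters searched on the gene's own strand. The tract was present at the start in 42 of 62 standard genes and in 1 of 5 paralogs. The call depends on the exact annotated start. Such a run began within 10 bases of the start, on either side, in 56 of the 67 genes (83.58%), against 33.29% of all promoters. Each line gives the 30 bases before the start and the 15 bases from the start, 5′ to 3′ on the gene's strand, with the pyrimidine tract that begins at the start in capitals. The first 6 are among the genes with the largest or the smallest changes, and all 6 carry the tract at the start. Not all such genes do. RPS26 has no tract at its annotated start, and the run of RPL3 there is only 4 bases. RPL10 is shown as a standard gene without the tract at its annotated start, and RPL7L1 and RPS27L as paralogs without it there. In RPL10 a run of 5 pyrimidines began 7 bases before the start.
RPLP2, chr11:809937-809981, plus strand: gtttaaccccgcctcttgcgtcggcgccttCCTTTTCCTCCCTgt
RPS3A, chr4:151099598-151099642, plus strand: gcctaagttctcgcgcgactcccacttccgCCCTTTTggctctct
RPS14, chr5:150449725-150449769, minus strand: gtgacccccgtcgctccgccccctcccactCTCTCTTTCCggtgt
RPL39, chrX:119791616-119791660, minus strand: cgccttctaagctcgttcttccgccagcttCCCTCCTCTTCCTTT
RPL26, chr17:8383179-8383223, minus strand: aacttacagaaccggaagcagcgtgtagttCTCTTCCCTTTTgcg
RPL41, chr12:56116603-56116647, plus strand: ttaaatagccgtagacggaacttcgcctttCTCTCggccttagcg
RPL10, chrX:154398035-154398079, plus strand: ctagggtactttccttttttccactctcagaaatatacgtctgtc
RPL7L1, chr6:42879586-42879630, plus strand: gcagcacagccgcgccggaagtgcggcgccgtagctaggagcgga
RPS27L, chr15:63157463-63157507, minus strand: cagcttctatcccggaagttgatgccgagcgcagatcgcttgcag
The tract ran for 13 bases in RPLP2, 7 in RPS3A, 10 in RPS14, 12 in RPL26 and 5 in RPL41. That of RPL39 is 19 bases long and goes on past the 15 printed.

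The libraries held between 12161994 and 43651551 counts. The 7 melanocyte markers, PMEL and TYRP1 foremost, were each at a median above 1 CPM (counts scaled by library size), with a summed level of 9438 to 14951 CPM. Epithelial, endothelial and erythroid markers had 0 genes at that level, the leukocyte list had 1 of 5 (CD68, with PTPRC at a median of 0), and the fibroblast list had 2 of 5 (LUM and COL1A1, with DCN and COL3A1 at a median of 0). *PTK2*, which encodes the FAK protein that VS-4718 inhibits, did not pass the test in the mean FAKi effect (log2 fold change 0.04 ± 0.07 SE, adjusted p = 0.786 by the quasi-likelihood F test of edgeR, adjusted after Benjamini and Hochberg over all genes), and neither did *GNAQ* (-0.12 ± 0.08, adjusted p = 0.384). Libraries within a group differed by a root mean square of 0.228 to 0.806 on the log2 scale. DMSO day 3 replicate 1 stood apart from replicates 2 and 3, FAKi day 7 replicate 1 from its other two, and DMSO day 21 replicate 3 from replicates 1 and 2.

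Of all counts in a library, 5.29 to 17.1% fell in the ribosomal protein genes, with a median of 7.10%. At day 0 the 3 DMSO libraries were at 6.98, 7.18 and 6.37%. At day 3 DMSO was at 5.73, 8.85 and 11.4% and FAKi at 5.86, 5.73 and 6.02%, so that replicates 2 and 3 of DMSO lay above every FAKi library and replicate 1 did not. At day 7 DMSO was at 7.47, 7.10 and 7.23% and FAKi at 5.66, 7.11 and 7.07%.
At day 14 the shares were 7.56, 5.29 and 5.97% in DMSO and 5.62, 5.48 and 5.49% in FAKi, and they overlapped. At day 21 they were 17.01, 17.10 and 10.02% in DMSO and 12.05, 11.39 and 9.91% in FAKi. Replicates 1 and 2 of DMSO at day 21 held the highest shares of all libraries, while its replicate 3 lay within the FAKi values.
As group means, the share was 6.84% ± 0.425 (SD, n = 3) at day 0. It was 8.67% ± 2.85 in DMSO and 5.87% ± 0.146 in FAKi at day 3, 7.27% ± 0.187 and 6.61% ± 0.823 at day 7, 6.27% ± 1.17 and 5.53% ± 0.0760 at day 14, and 14.7% ± 4.07 and 11.1% ± 1.10 at day 21 (SD, n = 3 each). FAKi was the lower of the pair on each of the 4 days, and the groups overlapped on each of them. With 3 libraries against 3, an exact permutation test cannot go below p = 0.1, and no test of the share was made.

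**Figure D1:**
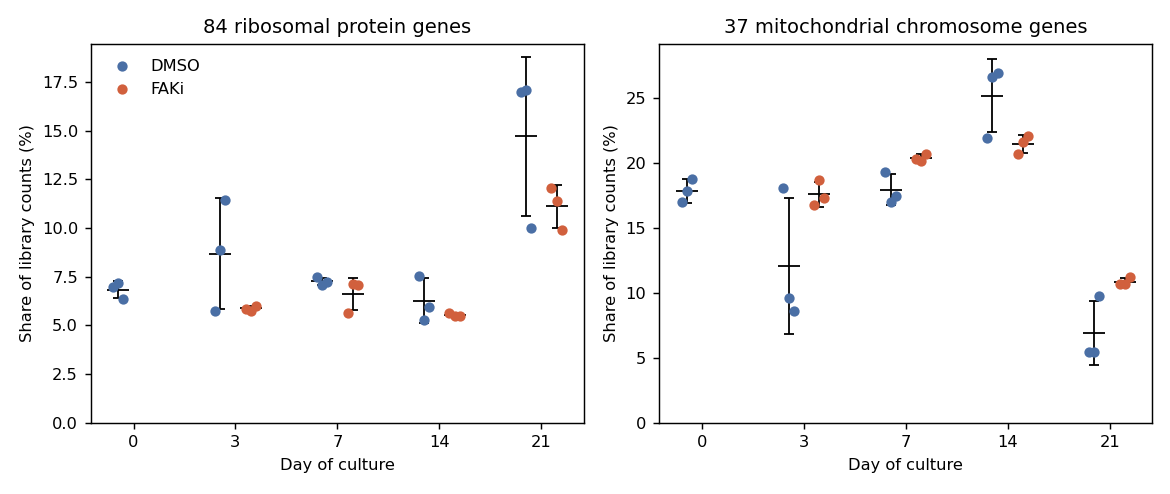
Share of library counts (%, vertical axis from 0) in the 84 ribosomal protein genes (left) and in the 37 genes of the mitochondrial chromosome (right), by day of culture. Points are single libraries, blue for DMSO and orange for FAKi, and the black marks give the group mean ± SD (n = 3). The ribosomal protein share is highest in DMSO day 21 replicates 1 and 2 (17.01 and 17.10%), and the libraries with a high ribosomal protein share are those with a low mitochondrial share.

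The share was higher in the libraries with the lowest share of the mitochondrial chromosome, which ranged from 5.49 to 26.97%. The 8 libraries with a mitochondrial share below 12% were DMSO day 3 replicates 2 and 3 and all libraries of day 21. Their ribosomal protein shares were 8.85 to 17.1%, against 5.29 to 7.56% in the other 19 libraries, whose mitochondrial shares were at least 16.8%. At day 14 the order differed, as DMSO had the higher group mean of both shares. The mitochondrial means were 25.2% in DMSO and 21.5% in FAKi, and the ribosomal protein means 6.27 and 5.53%. With mitochondrial counts left out of the total, the ribosomal protein share was still 15.7% ± 4.01 in DMSO and 12.5% ± 1.198 in FAKi at day 21 and 8.33% ± 0.455 at day 0 (SD, n = 3). The part of the mitochondrial share in the ribosomal protein levels was not tested.

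Most of these genes were deeply covered. All but 5 of the 84 had at least 1000 counts in every library, and the 77 standard genes never fell below 1072. RPL10L, an intronless copy of RPL10 expressed in testis, had 10 counts over all libraries and was not tested, so 83 genes were tested in each comparison.

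Per kilobase of the counted transcript, the standard genes spanned 88.2 (RPS26) to 3460.2 CPM per kb, with a median of 656. The highest were RPL8 at 3460.2, RPS2 at 2828 and RPL7A at 2482 CPM per kb, components of the large, the small and the large subunit. Among the tested genes the lowest were the paralogs RPL3L at 0.255, RPS27L at 6.73 and RPL26L1 at 25.4 CPM per kb. RPL3L is known as the form of RPL3 found in heart and skeletal muscle, and its level here ranged from 0.0944 to 1.09 CPM per library. The 10 genes with most counts held 33.2% of the counts of the family. These levels have a limit: the counting used a single transcript per gene, and in GENCODE 44 that transcript is a retained-intron form for 20 of the 84 genes, has no defined coding sequence for 7 and is a target of nonsense-mediated decay for 7. For 39 of the genes, more than 25% of the counted bases lie outside the exons of the reference (MANE) transcript. The median change of these genes in the mean FAKi effect was -0.42, against -0.40 for the 44 tested others. In 13 tested genes less than 80% of the MANE bases were counted, among them RPL41 with 30.5% and RPL10 with 33.9%.

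The genes moved largely together over the time course. For 80 of the 84, the group with the highest mean level was DMSO at day 21, and for 74 the lowest was FAKi at day 14 (39 genes) or FAKi at day 3 (35 genes). The exceptions at the top were RPL11 and RPL26, highest in DMSO at day 14, RPL41, highest in DMSO at day 7, and RPL7L1, highest in DMSO at day 3. The median gene stood at a log2 CPM of 9.14 in DMSO at day 0 and 10.54 in DMSO at day 21, and at 8.81 in FAKi at day 14. In 77 of the 83 tested genes the SD between group means was larger than the SD within groups, with medians of 0.52 and 0.33 on the log2 scale. RPS18, RPL39 and RPS3A had the largest SD between groups. RPS18 and RPS3A belong to the small subunit, and RPL39 sits at the tunnel through which the new protein leaves the ribosome.

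**Figure D2:**
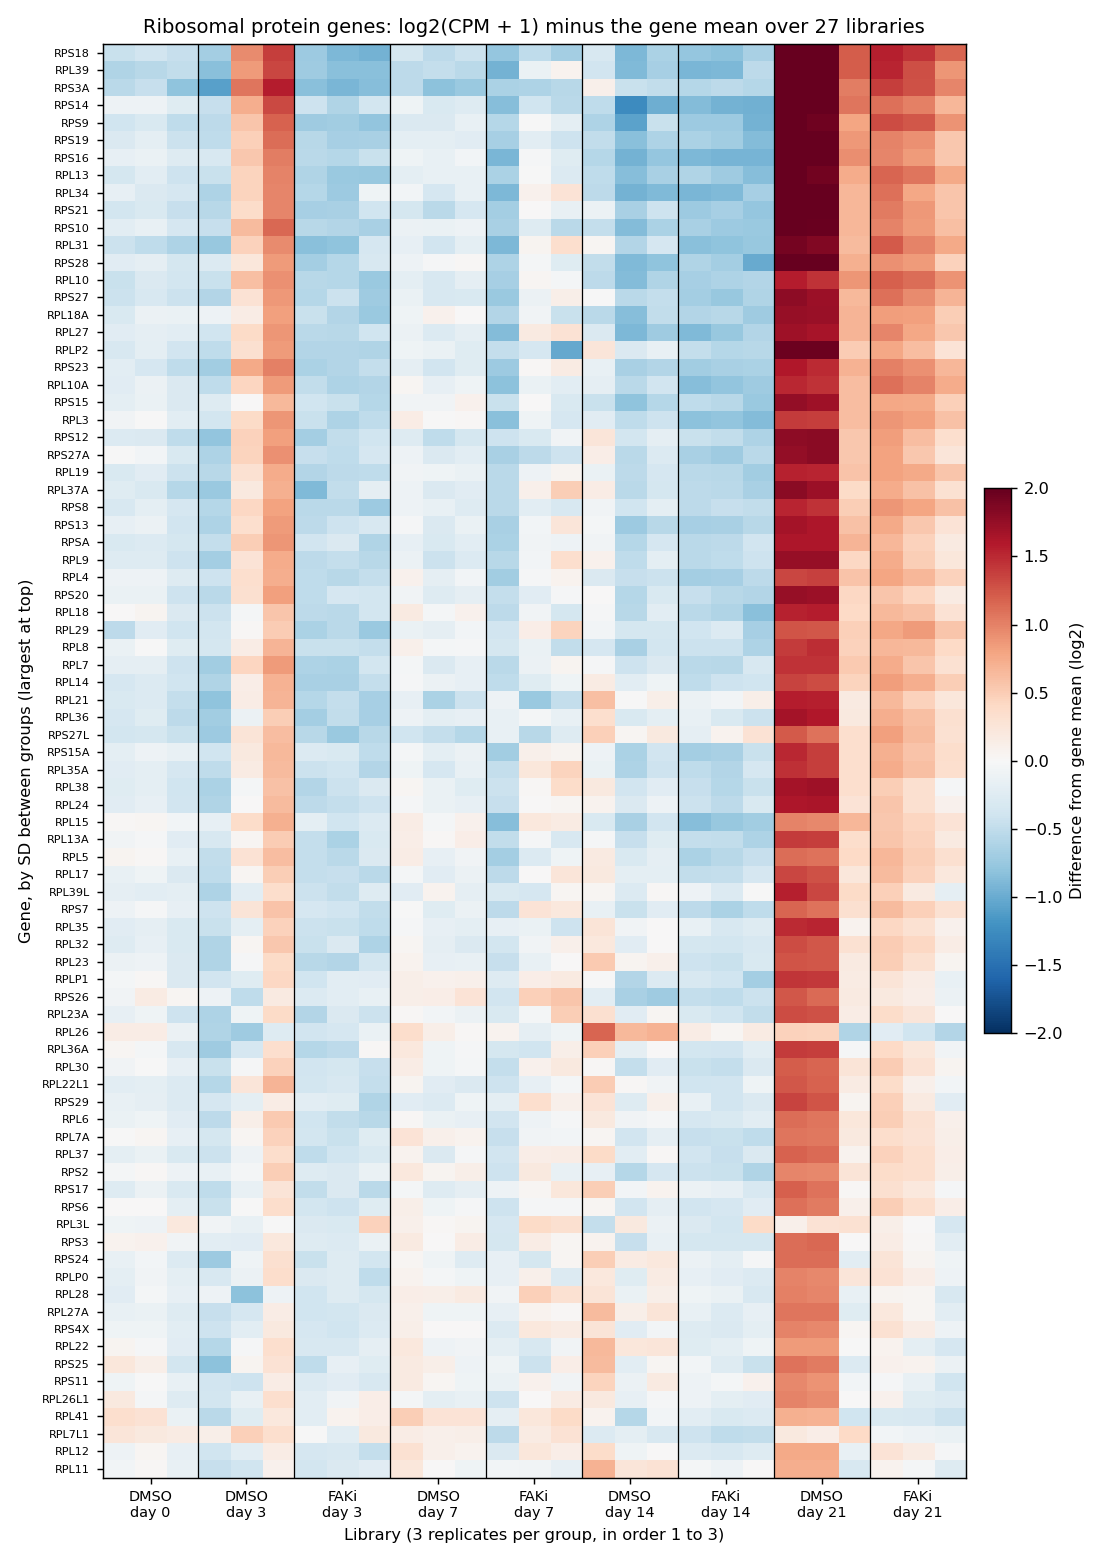
Heat map of 82 of the 83 tested ribosomal protein genes (rows, ordered by the SD between group means, largest at the top) in the 27 libraries (columns, replicates 1 to 3 of each group), as log2(CPM + 1) minus the mean of the gene; the color scale ends at -2 and 2. DMSO day 21 replicates 1 and 2 are the reddest columns, DMSO day 3 splits between replicate 1 and replicates 2 and 3, and RPL11, RPL7L1 and RPL41 stand near the bottom, among the genes that differed least between groups.

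The question of the experiment is what continued FAK inhibition does to gene expression. The mean FAKi effect over the 4 treated days uses all 24 libraries for it. The cells were passaged continually and sampled at intervals, so libraries of different days may come from the same cultures. The labels do not say, and the fit took the 24 libraries as independent. All 83 tested ribosomal protein genes had a negative log2 fold change in FAKi. Of these, 58 were lower at an adjusted p of at most 0.05, 0 were higher, and none passed a log2 change of 1 as well. The 58 are 69.9% of the 83. Of all 27897 genes tested, 8.70% were called lower and 6.96% higher, and 1.89% passed both thresholds. The median log2 fold change was -0.40, against 0.01 over all genes, with quartiles at -0.47 and -0.32. The calls held 21 of 31 small subunit genes (median -0.42), 31 of 43 large subunit genes (median -0.40), all 3 stalk genes (median -0.37) and 3 of 6 tested paralogs (median -0.26). These genes share libraries and move together, so they are not independent observations of the treatment.

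RPLP2, an acidic protein of the stalk that recruits elongation factors to the ribosome, had the largest fall. RPLP2 lies at chr11:809967-812876 in hg38. Its levels were 560.4, 995 and 1449 CPM in DMSO and 530.0, 529 and 527 CPM in FAKi at day 3, and 753, 732 and 672 CPM in DMSO and 573, 635 and 391 CPM in FAKi at day 7. At day 14 they were 943, 656 and 721 CPM against 572, 539 and 541 CPM, and at day 21 3124, 3126 and 1141 CPM against 1361, 1226 and 968 CPM. Every FAKi library was below every DMSO library at days 3, 7 and 14, and at day 21 DMSO replicate 3 lay among the FAKi libraries. The log2 fold change in the mean effect was -0.71 ± 0.14 (SE, edgeR adjusted p = 0.00144), and it kept its call in all 37 alternative fits. RPLP0, the scaffold of the stalk, changed by -0.33 ± 0.10 (edgeR adjusted p = 0.0201), and RPLP1, the partner of RPLP2, by -0.37 ± 0.12 (edgeR adjusted p = 0.0361). The call held in 36 of the 37 alternatives for RPLP0 and in 20 for RPLP1.

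RPL3, which reaches toward the peptidyl transferase center, was the other gene without overlap at days 3, 7 and 14. Its levels at day 14 were 2140.2, 1769 and 1875 CPM in DMSO and 1425, 1446 and 1379 CPM in FAKi, and its mean effect was -0.54 ± 0.11 (edgeR adjusted p = 0.00236). RPL15 was without overlap at days 3, 14 and 21, and at day 21 it was at 1130.2, 1105 and 907 CPM in DMSO and 824, 767 and 691 CPM in FAKi. RPLP2, RPL3 and RPL15 were the 3 genes in which the groups separated on 3 of the 4 days, and RPL15 is named here after its values were seen. These are 3.61% of the 83, against 2.30% of the 21147 genes tested on all 4 days. A further 6 genes separated on 2 days (7.23%, against 9.38%), 44 on 1 day (53.0%, against 31.8%) and 30 on none (36.1%, against 56.1%). In 52 of the 83 genes (62.7%, against 11.0% of all genes) the log2 fold change was negative on each of the 4 days.

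Genes with known roles outside the ribosome were among those that fell. RPL5 binds the 5S ribosomal RNA together with RPL11, and both proteins bind MDM2, the ubiquitin ligase of p53, when ribosome assembly is disturbed. RPL5 changed by -0.44 ± 0.11 in the mean effect (edgeR adjusted p = 0.00692), while RPL11 was at -0.29 ± 0.10 (edgeR adjusted p = 0.0504) and just missed the threshold. RPL13A, a protein with a role in translational silencing of inflammatory mRNAs, changed by -0.47 ± 0.11 (edgeR adjusted p = 0.00474), and RPSA, also known as the laminin receptor precursor, by -0.47 ± 0.12 (edgeR adjusted p = 0.0109). RPS6, the substrate of the S6 kinases, was at -0.27 ± 0.10 (edgeR adjusted p = 0.0736), and RPL41, the smallest ribosomal protein, at -0.21 ± 0.11 (edgeR adjusted p = 0.192). The call was kept in each of the 37 alternatives for RPLP2, RPL5, RPL13A, RPL3, RPL22 and RPL7A. After RPLP2, the largest fall was that of RPS3A at -0.67 ± 0.18 (edgeR adjusted p = 0.0116), and the smallest differences were those of RPL3L at -0.03, RPS26 at -0.20 and RPL41 at -0.21, which did not pass.

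The mean effect rested unequally on the days. Without day 3 it gave 22 calls and without day 21 it gave 21, in fits that called 10.8 and 6.96% of all genes in either direction. Without day 14 it gave 40 calls (18.2% of all genes) and without day 7 it gave 68 (16% of all genes), and the median was between -0.51 and -0.30 in these fits. With each library left out in turn, 36 to 82 genes were called, the fewest without DMSO day 3 replicate 3 (11.9% of all genes) and the most without DMSO day 21 replicate 3 (24.6%). A correction of each library for the length of the counted transcript gave 45 calls (16.1% of all genes) with a median of -0.29.

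**Figure D3:**
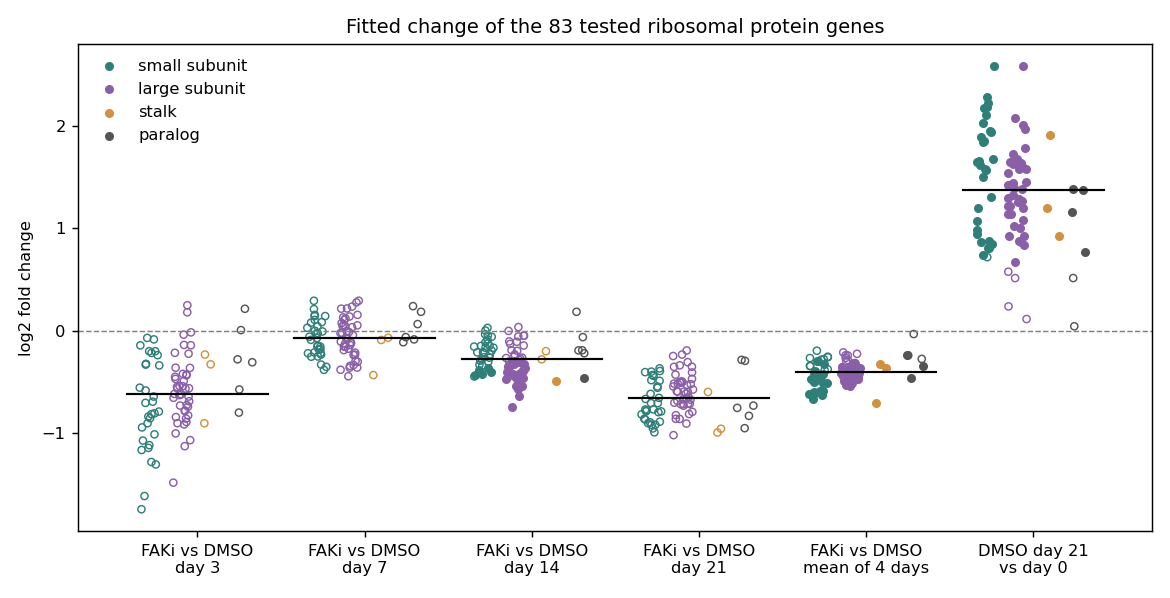
Log2 fold change (vertical axis) of each of the 83 tested genes in 6 comparisons, colored by subunit; filled points passed an adjusted p of 0.05 and open points did not, and black lines give the median over the 83. The FAKi comparisons lie mostly below 0 with 30 filled points at day 14 and 58 in the mean of the 4 days, and the DMSO day 21 comparison lies wholly above 0 with 76 filled points; both the day 21 and the mean comparison share the DMSO day 21 libraries with it.

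At day 14, 30 of the 83 genes were lower in FAKi (36.1%, against 6.10% of all genes tested) and 0 were higher (6.35% of all genes). The median was -0.28, against -0.01 over all genes. Large subunit genes held 23 of the calls (of 43), small subunit genes 5 (of 31), the stalk 1 of 3 and the paralogs 1 of 6. In 36 of the genes (43.4%) every FAKi library was below every DMSO library, against 13.8% of all genes. The largest fall was that of RPL26, a large subunit protein near the exit tunnel that is also known to bind the p53 mRNA. RPL26 stood at 2589.6, 1804 and 1867 CPM in DMSO and at 1273, 1176 and 1287 CPM in FAKi, without overlap. Its log2 fold change was -0.75 ± 0.11 (edgeR adjusted p = 0.000137), and it kept its call in all 16 alternatives.
RPL23, whose product also binds MDM2, followed at -0.64 ± 0.11 (edgeR adjusted p = 0.000450) and RPL22, known to bind a viral RNA of Epstein-Barr virus, at -0.57 ± 0.11 (edgeR adjusted p = 0.00141). RPL22 was at 605, 451 and 457 CPM in DMSO and at 325, 335 and 362 CPM in FAKi, again without overlap. The highest values were those of RPL3L at 0.18, RPL10 at 0.03 and RPS26 at 0.03, which did not pass. The count depended on the libraries and the fit. It was 8 without FAKi day 14 replicate 2 and 9 without FAKi day 14 replicate 1, in fits that called 6.10 and 6.84% of all genes in either direction. It was 17 without DMSO day 14 replicate 1 or FAKi day 14 replicate 3 (13.7 and 10.0% of all genes), 48 without DMSO day 14 replicate 2 (10.3%), and 1 when all 27 libraries shared an estimate of the spread (5.51%). The median was -0.17 without DMSO day 14 replicate 1. The mitochondrial share at day 14 was 21.95, 26.67 and 26.97% in DMSO and 20.7 to 22.1% in FAKi, and its part in the difference was not tested.

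At day 3, 0 of the 83 genes passed the adjusted p in edgeR, as did 0% of all genes. Unadjusted p-values were under 0.05 for 47 of them, all lower (56.6%, against 14.0% of all genes), and DESeq2 called 23, where it called 8.06% of all genes. The median was -0.62 and 79 genes were below 0. The lowest values were those of RPS3A at -1.75 ± 0.50, RPS18 at -1.62 ± 0.41 and RPL39 at -1.49 ± 0.42 (edgeR adjusted p = 0.104, 0.0972 and 0.104). RPS18 was at 234, 723 and 983 CPM in DMSO and at 228, 202 and 196 CPM in FAKi, so its DMSO replicate 1 was near the FAKi libraries and the other two were far above them. The same split ran through the family: without DMSO day 3 replicate 1, 66 genes passed, against 32.7% of all genes, while without replicate 3 the median was -0.32 with 0 calls. The mitochondrial share was 18.1% in DMSO day 3 replicate 1, 9.59 and 8.61% in replicates 2 and 3, and 16.8 to 18.7% in FAKi, and its part in the difference was not tested. At the other end RPL26 (0.25), RPL3L (0.21) and RPL41 (0.18) had the highest values, none of which passed. FAKi was below DMSO without overlap in 17 genes (20.5%, against 15.8% of all genes).

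At day 7 the median difference was the nearest to 0 of the 4 days. None of the 83 genes passed in edgeR, where 0.0269% of all genes did. DESeq2 called 0, where it called 0.892% of all genes. In edgeR 8, all lower, had an unadjusted p under 0.05 (9.64%, against 4.54% of all genes). The median was -0.07, with 54 genes below 0. The lowest values were RPL3 at -0.45, RPLP2 at -0.44 and RPS14 at -0.38, and the highest RPL35A at 0.29, RPS29 at 0.29 and RPL37A at 0.28. RPS14, a small subunit protein whose loss marks a subtype of myelodysplastic syndrome, was at 538, 463 and 479 CPM in DMSO and at 314, 432 and 392 CPM in FAKi. FAKi was the lower without overlap in 9 genes (10.8%, against 8.46% of all genes). FAKi replicate 1 held the lowest ribosomal protein share of its group, and without it the median was 0.06 and 4 genes passed, all higher in FAKi, in a fit that called 2.96% of all genes.

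At day 21 all 83 genes were below 0, with a median of -0.67, and 0 passed the adjusted p in edgeR, where 11.6% of all genes did. The unadjusted p was under 0.05 for 43 (51.8%, against 17.3% of all genes called lower at that level), and DESeq2 called 26, where it called 20.2% of all genes. The mitochondrial share was 5.49, 5.49 and 9.75% in DMSO and 10.7 to 11.2% in FAKi, and its part in the difference was not tested. The deviations of libraries with the same replicate number correlated on this day with r = 0.443, 0.128 and 0.658, least for replicate 2. The labels do not say that these numbers pair cultures, so a block on them is an assumption. With the replicate number as a block, 52 of the 83 genes passed, all lower, with a median of -0.57. That fit called 29.9% of all genes. With a length correction added to the block 37 passed, in a fit that called 29.4% of all genes. The length correction alone gave 2 calls, RPSA and RPL7L1, in a fit that called 17.4% of all genes. It moved the median to -0.43 with 81 genes below 0, and with the block added the median was -0.38 with 80 below 0. The lowest values were those of RPL38 at -1.02 ± 0.33, RPLP2 at -0.998 ± 0.35 and RPS19, a protein mutated in Diamond-Blackfan anemia, at -0.996 ± 0.33 (edgeR adjusted p = 0.0766, 0.0920 and 0.0813). RPS19 was at 4359, 4424 and 1736 CPM in DMSO and at 1898, 1789 and 1381 CPM in FAKi. The DMSO replicate 3 thus lay between FAKi replicates 2 and 3 and the other DMSO libraries lay above every FAKi library. RPL10, one of the last proteins to join the large subunit, was nearest to 0 at -0.20, followed by RPL10A at -0.24 and RPL29 at -0.25. The count also moved with DMSO replicate 3, whose count column has an irregular day in its heading. Without that library 81 genes passed, 31 of them also past a log2 change of 1, in a fit that called 48.5% of all genes. With it, 3 genes were lower without overlap (3.61%, against 18.9% of all genes).

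An interaction term tested whether the FAKi difference at day 21 was unlike that at day 3. In edgeR 0 of the 83 genes passed (2.93% of all genes did), and 7 had an unadjusted p under 0.05. Of these, 5 were lower (6.02%, against 9.06% of all genes) and 2 higher (2.41%, against 10.0%). DESeq2 called 0 of the 83, where it called 7.23% of all genes. The median was -0.09, against 0.09 over all genes, and it turned to 0.18 without DMSO day 3 replicate 1 and went to -0.38 without DMSO day 3 replicate 3 and -0.34 without DMSO day 21 replicate 3. It was also above 0 without DMSO day 21 replicate 1 (0.05) or 2 (0.08) and without FAKi day 21 replicate 3 (0.05). Values ran from -0.99 for RPL3L and -0.92 for RPL41 to 1.19 ± 0.53 for RPS18 and 1.02 ± 0.66 for RPS3A (edgeR adjusted p = 0.24 and 0.436), and that of RPS3A turned to -0.23 when pseudogene counts were added to it. Without DMSO day 3 replicate 1 there were 4 calls, all higher, where 7.60% of all genes were called, and without DMSO day 21 replicate 3 there were 9, all lower, where 10.1% were.

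In DMSO alone, the genes were higher at day 21 than at day 0. Of the 83, 76 rose (91.6%, against 24.1% of all genes called higher), 60 of them past a log2 change of 1 (72.3%, against 13.2%), and 0 fell (20.7% of all genes). The median was 1.38, with 1.62 in the small subunit, 1.30 in the large subunit and 1.201 in the stalk. In 68 genes (81.9%, against 29.8% of all genes) every day 21 library was above every day 0 library. The mitochondrial share was 16.98, 17.85 and 18.81% at day 0 and 5.49, 5.49 and 9.75% in DMSO at day 21, and its part in the rise was not tested. This comparison uses the same DMSO day 21 libraries as the FAKi comparison at that day.
RPS3A rose from 103, 109 and 85.5 CPM to 749.8, 739 and 308 CPM, a log2 fold change of 2.59 ± 0.32 (edgeR adjusted p = 0.00180). RPL39 rose from 160.2, 164 and 171 CPM to 1237, 1189.5 and 561 CPM, a change of 2.59 ± 0.29 (edgeR adjusted p = 0.00121). Neither gene overlapped between the days, and in both DMSO day 21 replicate 3 was the lowest of its group. RPS18 followed at 2.29 ± 0.24 (edgeR adjusted p = 0.00103). RPL10, RPS14, RPS23 and RPS9 were also among the 8 genes with the smallest p past both thresholds, and these 8 kept their calls in all 16 alternatives.

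For a few genes the difference did not pass the test. RPL26 was at 1268, 1277 and 1054 CPM at day 0 and at 1583, 1569 and 757 CPM in DMSO at day 21 (0.11 ± 0.27, edgeR adjusted p = 0.754). RPL41 was at 572, 552 and 412 CPM and then at 743, 733 and 341 CPM (0.24 ± 0.29, edgeR adjusted p = 0.524), and RPL7L1, a paralog of RPL7 with a role in the maturation of the large subunit, had a change of 0.04 ± 0.13 (edgeR adjusted p = 0.804). In all 3 the groups overlapped. For RPL26 and RPL41, replicates 1 and 2 of DMSO day 21 lay above every day 0 library, and replicate 3 lay below all of them. The length of the counted transcript moved with this comparison. That length is not always that of the mRNA, as for 39 genes over 25% of the counted bases lie outside the MANE exons. After the correction for length the median was 0.81 with 62 calls, in a fit that called 38.1% of all genes. The 2 lower calls were RPL26 at -0.64 (edgeR adjusted p = 0.0194) and RPL41 at -0.61 (edgeR adjusted p = 0.0272).

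**Figure D4:**
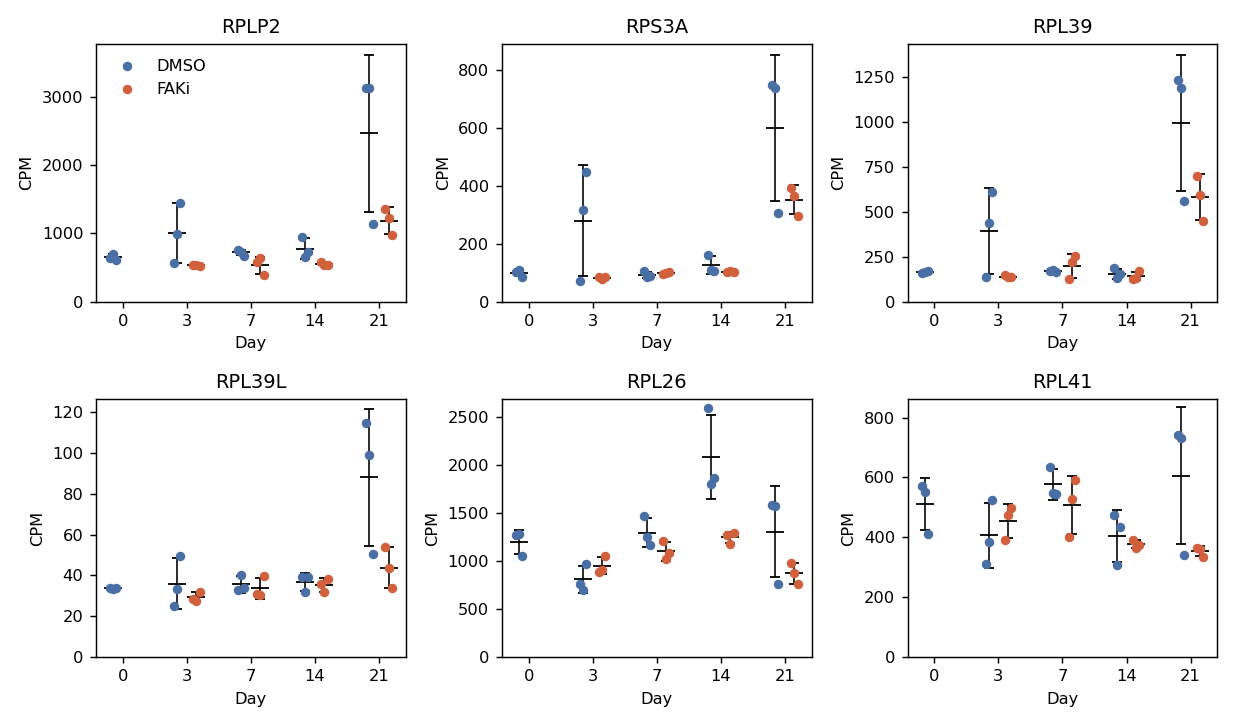
CPM (vertical axes from 0, different for each gene) by day for 6 ribosomal protein genes; points are libraries, blue for DMSO and orange for FAKi, and black marks give the group mean ± SD (n = 3). RPLP2, RPS3A and RPL39 rise in DMSO replicates 1 and 2 at day 21 (RPLP2 to 3124 and 3126 CPM), RPL39L rises less, RPL26 is highest in DMSO at day 14, and RPL41 stays between 305 and 743 CPM.

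RPS3A needs a further value. The table also lists 1294 pseudogenes named after these genes, intronless copies whose sequence can be nearly that of the mRNA, and the study's methods do not say how reads that fit several places were counted. The 53 pseudogene rows of RPS3A held 1143907 counts, 822% of the 139207 counts of RPS3A itself. This ratio was 1547% at day 0 and 595% in DMSO at day 21. With the counts of pseudogenes added to the gene they are named after, an alternative chosen after seeing the data, the change of RPS3A in DMSO from day 0 to day 21 was 1.36 (edgeR adjusted p = 0.00947) in place of 2.59, and its FAKi value at day 3 was -0.55 in place of -1.75. RPL39, with 45.5% of its own counts in pseudogene rows, went from 2.59 to 2.21. RPLP2, RPS14 and RPS18 had 0.000157, 0.0104 and 6.72%. In the mean FAKi effect the addition gave 62 calls (15.8% of all genes) and a median of -0.40. In DMSO at day 21 against day 0 it gave 76 calls (44.3% of all genes) and a median of 1.40. RPS3A was the only gene that moved by more than 0.5 on the log2 scale, in the comparisons at day 3, of day 3 with day 21 and in DMSO. Over the 83 genes the median pseudogene count was 7.43% of the gene's own, and it was above 100% in 5, namely RPS3A, RPL7, RPS23, RPSA and RPL9 (RPL9 named after its value was seen). Read-through rows share reads as well: that of RPL17 with C18orf32 held 99.8% as many counts as RPL17, and those of RPS10 and RPL36A 79.3 and 45.1%. These 3 genes are named for that reason, after their values were seen.

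Against their partners, some paralogs stood lower and some higher in DMSO at day 21 than at day 0. RPL39L had 20.3% ± 0.808 (SD, n = 3) of the CPM of RPL39 at day 0 and 8.86% ± 0.480 in DMSO at day 21. RPL39L was at 34.0, 33.1 and 33.6 CPM at day 0 and at 115, 99.1 and 50.4 CPM in DMSO at day 21 (1.39 ± 0.27, edgeR adjusted p = 0.00542). RPL7L1 had 32.1% ± 2.41 of the CPM of RPL7 at day 0 and 13.5% ± 6.81 at day 21. RPL22L1, whose splicing and level are controlled by RPL22, went the other way, from 47.5% ± 3.53 to 65.5% ± 5.18 of RPL22. RPS27L went from 3.04% ± 0.138 to 2.24% ± 0.249 of RPS27, and RPL26L1 from 1.44% ± 0.137 to 2.29% ± 0.0608 of RPL26 (SD, n = 3 each). These ratios compare changes and not levels, since the counted transcripts differ in length, and they were not tested. Under FAKi RPL22L1 fell in the mean effect (-0.46 ± 0.12, edgeR adjusted p = 0.0108), as did RPL39L (-0.35 ± 0.12, edgeR adjusted p = 0.0407) and RPL7L1 (-0.24 ± 0.08, edgeR adjusted p = 0.0397). The calls of RPL39L and RPL7L1 held in 18 and 19 of 37 alternatives, that of RPL22L1 in 36. RPL26L1, RPS27L and RPL3L did not pass (-0.24, -0.28 and -0.03).

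The changes of genes with and without the tract at their start were set side by side without a test. Of the 67 genes, 43 had it at the annotated start and 56 within 10 bases of it. The group without it therefore includes genes with a tract close by, and the split depends on the annotated start. In the mean FAKi effect the median was -0.42 over the 43 with it and -0.36 over the 23 tested without it, at day 14 -0.30 and -0.28, and at day 21 -0.72 and -0.53. At day 3 the order was the other way, -0.62 with the tract and -0.65 without it, as at day 7 with -0.06 and -0.08. For the rise in DMSO from day 0 the medians were 1.54 and 1.27. Single genes went both ways in that comparison. RPS3A, RPL39 and RPS18, which carry the tract at the start, had the largest rises. RPL10, which lacks it there, rose by 1.68 ± 0.20, and RPL26 and RPL41, which carry it, did not pass. The part of the tract in the rise was not tested.

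The rest of the translation machinery moved to different degrees in the mean FAKi effect, in which 8.70% of all genes were called lower and 6.96% higher. Of the 4 ribosomal genes outside the name rule, 3 were lower (median -0.38), among them RACK1 at -0.41 and FAU at -0.36 (named after their values were seen). Of 20 other TOP genes, which encode mainly elongation and initiation factors, 13 were lower and 0 higher (median -0.29). Of 30 genes for ribosome biogenesis and RNA polymerase I, 10 were lower and 1 higher (median -0.15). Among the latter PES1 and BOP1, partners in the processing of large subunit RNA, changed by -0.49 ± 0.08 and -0.55 ± 0.10 (edgeR adjusted p = 0.000328 and 0.000424), and the histone chaperone NAP1L1 of the TOP list by -0.54 ± 0.10 (edgeR adjusted p = 0.000477).
PES1 was at 248, 275 and 153 CPM in DMSO and at 122, 116 and 101 CPM in FAKi at day 21, without overlap. Of 16 genes of the mTORC1 pathway and the LARP proteins, 2 were lower and 2 higher (median 0.03), and the lowest was EIF4EBP1, the inhibitor of cap-dependent translation that mTORC1 switches off. EIF4EBP1 was at 227, 207 and 223 CPM in DMSO and at 89.6, 80.9 and 75.04 CPM in FAKi at day 14, and its mean effect was -0.84 ± 0.15 (edgeR adjusted p = 0.000404). Of 75 mitochondrial ribosomal protein genes, 25 were lower and 0 higher (median -0.22), and of the 610 tested pseudogenes 137 were lower and 5 higher (median -0.46). The 37 genes of the mitochondrial chromosome had a median of 0.27 with 4 higher and 1 lower.

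**Figure D5:**
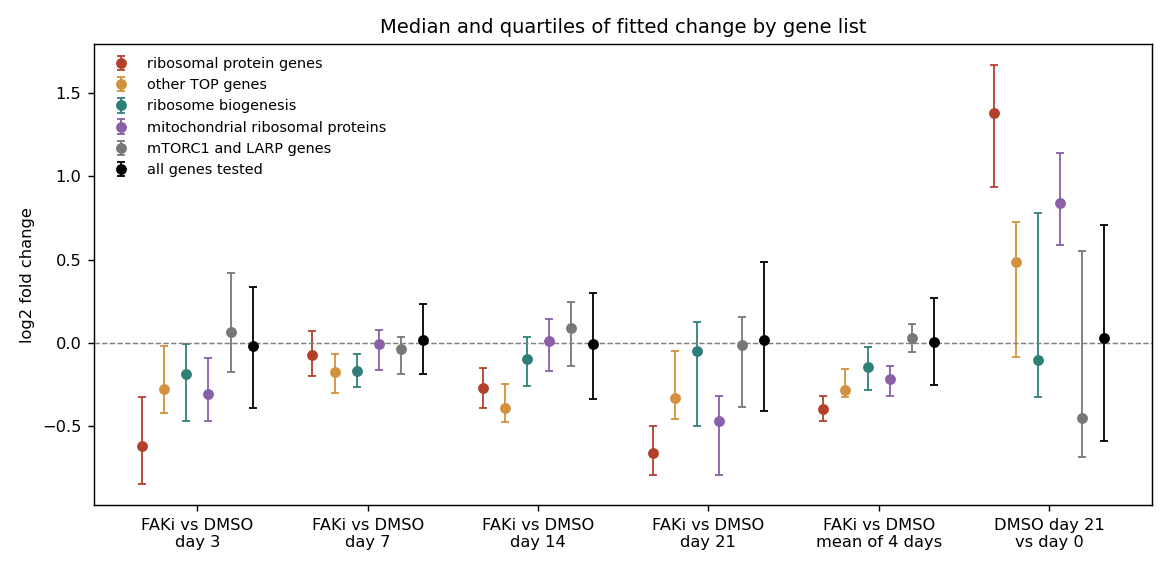
Median (points) and quartiles (bars) of the log2 fold change of the genes in each list, for 6 comparisons; the lists are the 83 tested ribosomal protein genes, 20 other TOP genes, 30 ribosome biogenesis genes, 75 mitochondrial ribosomal protein genes, 16 mTORC1 and LARP genes, and all genes tested. The ribosomal protein genes have the lowest median in the mean of the 4 days (-0.40). They have the highest in DMSO day 21 against day 0 (1.38). At day 7 the other TOP genes (-0.18) and the ribosome biogenesis genes (-0.17) have lower medians, and at day 14 the other TOP genes do.

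In DMSO from day 0 to day 21 the lists had different medians, where 24.1% of all genes were called higher and 20.7% lower. The median was 0.48 for the other TOP genes (10 higher, 2 lower), -0.11 for ribosome biogenesis (12 higher, 7 lower) and 0.84 for the mitochondrial ribosomal proteins (55 of 75 higher, 0 lower), against 1.38 for the ribosomal protein genes. The pseudogenes named after them had a median of 2.07, with 319 of 455 tested higher and 7 lower.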

How the data were processed

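The sequenced libraries were 27 mRNA libraries of 92.1 cells, grouped by treatment and day as the labels give them. The authors trimmed reads with Trim Galore, checked them with FastQC 0.11.8, aligned them to hg38 with STAR 2.5.3a and counted exon reads of 1 transcript per gene with HOMER. The deposited values are these raw counts, without normalization. All 27 count columns were matched to a sample, with 0 left over, and 17687 rows had no count. In the column heading of DMSO day 21 replicate 3 the day reads as 7 and 21 run together. It was taken as day 21, as its sample label gives. The strand setting and the treatment of reads with several matches are not given in the sources used here.

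Comparisons used edgeR 4.0.16 in R 4.3.3 on the libraries of the groups compared: genes with at least 20 counts in total, TMM scaling, glmQLFit and glmQLFTest, Benjamini-Hochberg adjustment over all genes tested, and a threshold of 0.05. DESeq2, the test of the study's methods, was an alternative, run here in version 1.42.0. CPM values were scaled by TMM over all 27 libraries, and log2 levels carry a prior count of 2. Depth was 12161994 to 43651551 counts. The precision of a value was set by 3 libraries per group and not by depth. The scripts were tested on simulated data.

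Further alternatives were scaling by RLE or by the upper quartile, filterByExpr or no filter on counts, no mitochondrial genes, a loess correction on log transcript length (span 0.5), all 27 libraries in a single fit, a replicate block, and each library left out. Added after seeing the data were the mean effect without each day, the block with length correction, and pseudogene counts added to their gene. Figures used matplotlib in Python. At day 21 the deviations of same-numbered libraries correlated across 16982 genes with r = 0.443, 0.128 and 0.658. The block assumes that the numbers pair the libraries, which the labels do not say. At day 3 r was 0.000838 to 0.107, at day 7 -0.144 to -0.0716 and at day 14 -0.0258 to 0.00966.

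Named genes were those with set roles (RPLP0, RPLP1, RPLP2, RPL5, RPL11, RPSA, RPS6, RPL13A, RPL41), the paralogs and their partners, the 3 largest rises and falls and up to 8 genes past both thresholds per comparison, the 3 highest and 3 lowest levels per kb, the 3 largest SDs between groups, PTK2 and GNAQ, and the 4 genes of the other lists with the smallest p in the mean effect. The ribosomal protein genes, the gene lists and the naming rule were chosen with earlier results of these data known. The values of some genes are not reported here by name.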

Additional observations from a re-analysis of the deposited data

How the results depend on the processing

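Levels rest on 3 libraries per group, on 1 counted transcript per gene and on an unstated treatment of reads shared with pseudogenes. Of the values of the main comparisons under an alternative, 279 stayed within set bounds (1.5 times for a count, 1 SD between replicates for a median or share) and 31 did not. These bounds are wide for medians near 0: with a library left out, that of day 7 ranged from -0.15 to 0.06 and that of the change from day 3 to day 21 from -0.38 to 0.18. The counts of genes past the adjusted p follow, and percentages give the share of all genes called in the same fit. Day 3 (main value 0) gave 48 without a count filter (8.95%), 23 with DESeq2 (8.06%) and 31 in the fit of all 27 libraries (9.14%). With a library left out it gave 0 to 66, with 32.7% at the highest count. Day 7 (0) gave 0 to 4 with a library left out, with 2.96% at the highest count. Day 14 (30) gave 1 with all 27 libraries (5.51%) and 8 to 48 with a library left out (6.10 and 10.3%). Day 21 (0) gave 43 without a filter (13.1%), 26 with DESeq2 (20.2%), 2 with the length correction (17.4%) and 48 with all 27 libraries (19.2%). It gave 1 with pseudogene rows added (12.4%), 52 with the replicate block (29.9%) and 37 with the block and the length correction (29.4%). With a library left out it gave 0 to 81, with 48.5% at the highest count. The mean effect (58) gave 22 without day 3 (10.8%), 21 without day 21 (6.96%) and 36 to 82 with a library left out (11.9 and 24.6%). The change from day 3 to day 21 (0) gave 4 without a filter (4.55%) and 1 with the length correction (5.94%). With a library left out it gave 0 to 9, with 10.1% at the highest count. DMSO day 21 against day 0 (76) gave 49 to 81 with a library left out (24.4 and 69.7%), and its median was 0.81 with the length correction. The cause of these shifts was not tested. Other than at day 21, the replicate block left counts within 1.5 times. They were 47 in the mean effect (14.1%) and 35 at day 14 (13.9%). At days 3, 7 and 14 the deviations of same-numbered libraries correlated at no more than 0.107.

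The sign of some named genes turned. With a library left out, RPL3L ranged from -0.90 to 0.61 at day 3, from -0.95 to 0.91 at day 14, from -0.32 to 0.15 in the mean effect and from -1.36 to 0.15 in the change. At day 14 RPS26 ranged from -0.0694 to 0.21 and RPL10 from -0.0666 to 0.11, and in DMSO RPL26 ranged from -0.0551 to 0.38 and RPL7L1 from -0.0454 to 0.0866. With the length correction, RPL29 was at 0.0926 and RPL10A at 0.0666 at day 21, RPL3L at 0.0142 in the mean effect, and RPL26 at -0.64 and RPL41 at -0.61 in DMSO. With the block added to it, RPL29 was at 0.0956, RPL10A at 0.0762 and RPL10 at 0.00235. Without day 21 the mean effect was 0.00583 for RPS26 and 0.21 for RPL3L. With pseudogene rows added, RPS26 was at -0.0478 and RPL10 at -0.00766 at day 14, and RPS3A at -0.23 in the change. Among these, the length-corrected values of RPL26 and RPL41 passed the adjusted p. The days left out, the block with length correction and the added pseudogene rows were chosen after seeing the data.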
